A study of Mus musculus with 16 samples.

Results

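The HOX genes encode homeodomain transcription factors that set position along the body and limb axes, and they were examined here in C2C12 cells with and without AMPK. The members were the protein-coding genes of both count tables whose symbol is Hoxa, Hoxb, Hoxc or Hoxd followed by a number, 39 of 49585 genes, with 11 in the HoxA cluster, 10 in HoxB, 9 in HoxC and 9 in HoxD. C2C12 is an immortal myoblast line from mouse thigh muscle whose cells fuse into myotubes in medium low in serum. Gene expression was measured by RNA-seq of ribosomal RNA-depleted total RNA in 16 libraries. WT cells and AMPK-KO cells, which carry the genotype AMPK-/- with both catalytic subunit genes targeted by CRISPR-Cas9, were sampled at d0 in medium with 10% fetal bovine serum, labelled myoblasts, and at d8 in medium with 2% equine serum, labelled myotubes in both genotypes, with 2 libraries in each of these 4 groups. A second table held myoblasts at d0 that all carry AMPK-/- and a FLAG-BirA tag with an EGFP cassette knocked in at the endogenous *Tet2* locus, either with the unchanged sequence (TET2-WT) or with the phospho-mimicking S97E change (TET2-S97E), with 2 clones per genotype and 2 libraries per clone. The labels do not say which AMPK-KO clone or clones were sequenced, although the study describes its AMPK-KO sequencing tracks as those of independent lines, or whether the libraries of a group came from separate cultures, so the p-values below measure the spread between these libraries, which may be technical. A difference between AMPK-KO and WT cells cannot be told apart from a difference between the lines.

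HOX genes lie in 4 clusters in which gene order follows the order of expression along the body axis. Genes at the first end of a cluster (here paralog groups 1 to 3, called anterior) mark the hindbrain and neck, and those of groups 4 to 8 (central) the trunk. Those of groups 9 to 13 (posterior) mark part of the thorax, the lumbar region, the tail and the outer limb. Polycomb proteins keep unused HOX genes silent through methylation of histone H3 at lysine 27, Trithorax proteins hold used ones active, and retinoic acid induces the anterior end. HOX proteins bind DNA together with TALE homeodomain partners of the PBX, MEIS and PKNOX families. Cells of adult muscle are known to keep much of the HOX code of the place from which they came. There were 8 anterior, 15 central and 16 posterior members.

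Libraries of WT and AMPK-KO cells held 17883417 to 24663079 counts, and those of the TET2 table held 19801909 to 37790358. *Prkaa1*, which encodes the alpha 1 subunit of AMPK, had 3287 and 2925 counts in the d0 libraries of WT, with 1522 and 1669 in those of AMPK-KO, and 2290 and 2661 against 2043 and 1698 at d8. *Prkaa2*, the gene of the alpha 2 subunit, had 35 and 33 counts in the d0 libraries of WT, with 4 and 9 in those of AMPK-KO, and 113 and 216 against 31 and 17 at d8. Both genes were lower in the knockout libraries after scaling to library size, at both days and with no overlap, in the direction of the labels, and transcripts of the targeted genes were still counted. *Des* (desmin) had between 17070 and 68527 counts over the 16 libraries and *Myf5*, a myoblast determination factor, between 313 and 1309. The later muscle genes were low in AMPK-KO cells at d0, with 12 and 12 counts of *Myog*, 4 and 3 of *Myh3* and 4 and 0 of *Ckm*, against 612 and 361, 248 and 243, and 11 and 27 in WT cells. Of 19 markers of immune, endothelial, epithelial, neural, adipocyte and fibroblast cells, between 7 and 13 exceeded 3 counts in a library, and *Ptprc*, the leukocyte marker, had at most 1 count.

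The C2C12 cells expressed the HoxA and HoxC clusters with a posterior bias, expressed HoxB weakly, and were almost without HoxD transcripts. Levels are given as TPM, counts divided by the length of the merged exons and scaled to the same sum in each library, so that genes of different length can be compared within a library. A floor of 3 counts per library was used for detection, and 3 counts correspond to between 0.0794 and 0.165 CPM (counts scaled to library size only), a limit that covers counting error only. In all 16 libraries, 9 of 11 HoxA members, 1 of 10 HoxB members, 9 of 9 HoxC members and 0 of 9 HoxD members exceeded the floor. A mean of at least 1 TPM in at least 1 group was reached by 11 HoxA, 5 HoxB, 9 HoxC and 0 HoxD members, which were 4 of the 8 anterior, 12 of the 15 central and 9 of the 16 posterior members. Another 8 members stayed at or under the floor in every library, beside 30.5% of the 21734 protein-coding genes, and *Hoxb1*, *Hoxd1* and *Hoxd3* had 0 counts throughout.

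**Figure D1:**
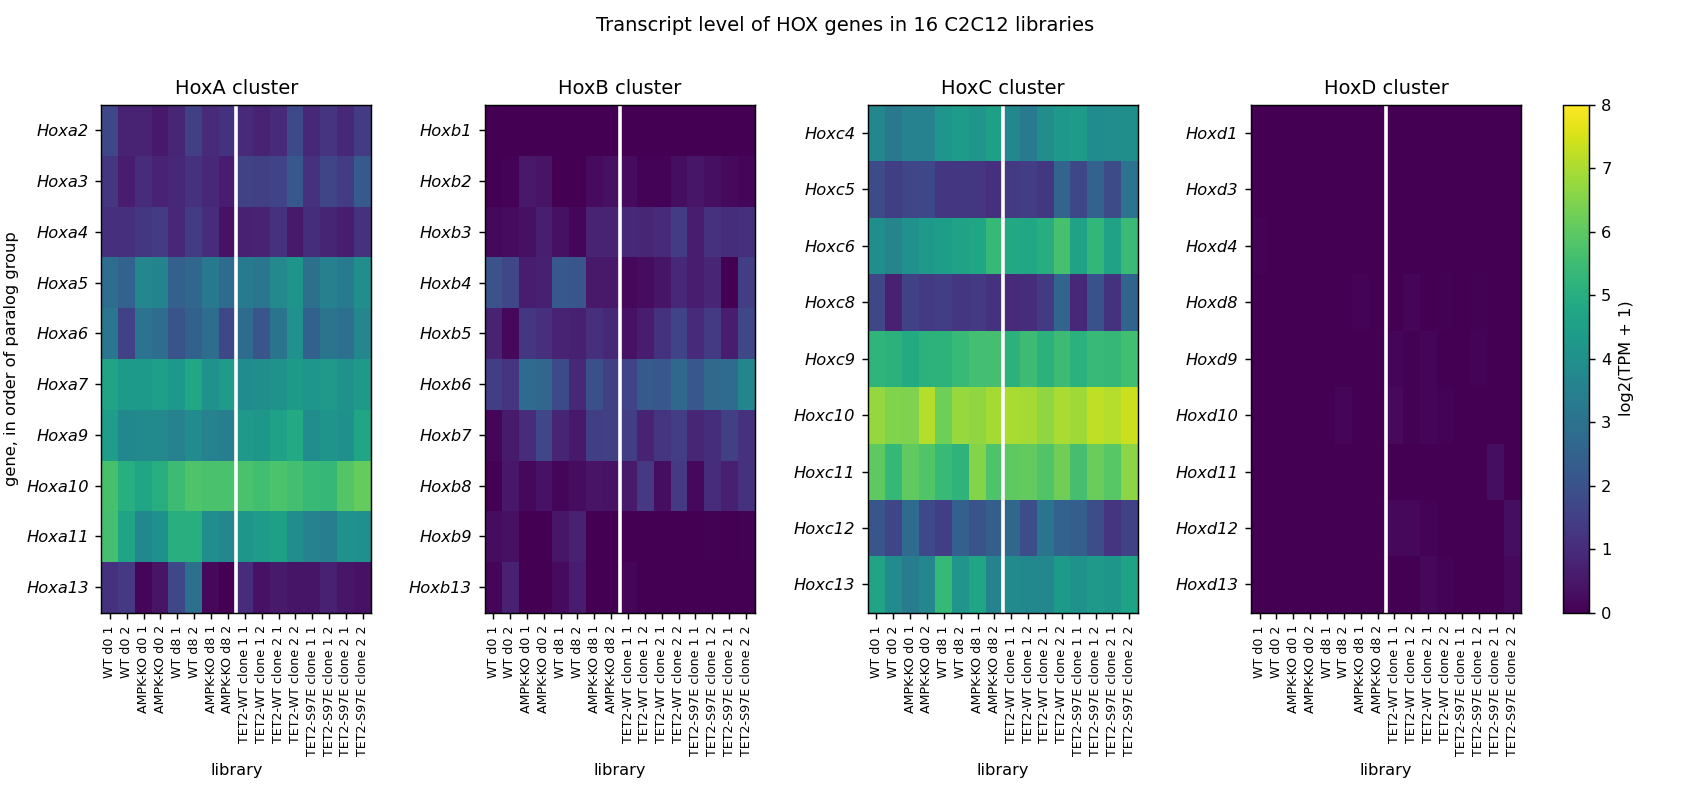
Transcript level of the HOX genes, 1 panel per cluster. Rows are genes in order of paralog group, columns are the 16 libraries (group, then replicate number), color is log2(TPM + 1), and the white line separates the tables. Hoxc9, Hoxc10, Hoxc11 and Hoxa10 are bright in all 16 libraries, with Hoxc10 between 74.4 and 164 TPM. Hoxa13 runs from 0 to 6.69 TPM, and the HoxD panel is dark.

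The 4 HOX transcripts with the highest mean TPM were posterior members of HoxC and HoxA, and the central member *Hoxc6* was at rank 5. *Hoxc10*, a lumbar and hindlimb gene, was the highest member of all with 74.4 to 164 TPM and a median of 117 TPM over the 16 libraries, and it led the HoxC cluster in 16 of 16 libraries. *Hoxc11*, its neighbor with related roles in the hindlimb, ran from 35.8 to 96.8 TPM with a median of 61.5 TPM. *Hoxa10*, which patterns the lumbar spine and the upper leg, ran from 25.8 to 67.3 TPM with a median of 48.8 TPM and was first in HoxA in 16 of 16 libraries. The ranges of *Hoxc11* and *Hoxa10* overlapped, so their order is not fixed by these libraries, whereas the lowest *Hoxc10* value was above the highest *Hoxa10* value. *Hoxc9*, a thoracic gene that shapes motor neuron columns, had 28.5 to 49.1 TPM, and *Hoxa11*, a gene of the lower limb segments, 9.77 to 48.7 TPM. *Hoxc13*, known from hair and nail formation, had 9.41 to 39.8 TPM, and *Hoxa9*, a gene of the trunk and of blood progenitors, 9.83 to 28.7 TPM. *Hoxc12* was lower, at 1.29 to 7.55 TPM. *Hoxa13*, the gene of the hand and foot plate at the far end of HoxA, ran from 0 to 6.69 TPM, with the highest value in the second WT d8 library. Posterior members together made up 70.4% to 81.3% of the summed HOX TPM, central members 17.5% to 27.8% and anterior members 1.02% to 1.73%.

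Central members were led by HoxC and HoxA genes as well. *Hoxc6*, which marks the level of the forelimb and the thorax, had 11.5 to 50.5 TPM with a median of 24.3 TPM, *Hoxa7*, a trunk gene, 13.7 to 26.3 TPM with a median of 18.6 TPM, and *Hoxc4* 8.41 to 22.3 TPM with a median of 14.2 TPM. These 3 ranges overlapped. *Hoxa5*, known from lung and shoulder development, had 4.45 to 16.6 TPM and *Hoxa6* 1.93 to 15.7 TPM. *Hoxc5* ran from 1.11 to 7.28 TPM, *Hoxc8* from 0.663 to 5.08 TPM and *Hoxa4* from 0.323 to 1.66 TPM. Anterior members of HoxA were detected at low level, with *Hoxa2*, a selector of the pharyngeal arches, at 0.465 to 2.42 TPM and *Hoxa3*, needed for the thymus and parathyroid, at 0.541 to 3.78 TPM. Exons of *Hoxa3* shared 27.1% of their length with other genes, those of *Hoxa7* 20.4% and those of *Hoxa11* 35.0%, and whether reads were counted by strand is not given in the sources used here. The 10 highest members by mean TPM all belonged to HoxA and HoxC, and these 10 genes were also the highest after removal of mitochondrial and the 20 most abundant noncoding genes, and with TMM-scaled counts per kilobase.

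HoxB was expressed weakly and mainly from its center. *Hoxb6*, a trunk and blood progenitor gene, had 0.878 to 11.7 TPM and led the cluster in 11 libraries. *Hoxb4*, known as a gene that expands blood stem cells, led it in 4 libraries, which were the 4 WT libraries, and *Hoxb7* in the remaining 1. *Hoxb7* ran from 0.114 to 2.24 TPM, *Hoxb5* from 0.135 to 2.29 TPM, *Hoxb3* from 0.0811 to 1.61 TPM and *Hoxb4* from 0 to 3.65 TPM. *Hoxb8*, *Hoxb2*, *Hoxb9* and *Hoxb13* stayed under a mean of 1 TPM in every group. Exons of *Hoxb3* shared 52.9% of their length with *Hoxb3os* on the other strand, which limits the reading of its counts. Those of the HoxD members *Hoxd3* and *Hoxd4* shared 62.8% and 52.3% with other genes, with the same limit. The 9 HoxD members together collected 41 counts over the 16 libraries, against 43853 for HoxA, 2480 for HoxB and 70076 for HoxC, and the highest HoxD value was 6 counts of *Hoxd11* in a single TET2-S97E library.

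The share of HOX transcripts that came from HoxA separated the genotypes of the first table. HoxA made up 38.0% and 32.8% of the summed HOX TPM in the WT libraries of d0, with 28.6% and 26.8% in those of AMPK-KO, and 33.2% and 36.4% against 25.8% and 25.2% at d8. The WT values lay above the AMPK-KO values at both days without overlap. HoxC made up 60.6% and 65.3% in the WT libraries of d0, with 68.4% and 70.5% in those of AMPK-KO, and 64.5% and 61.9% against 72.5% and 73.3% at d8, again without overlap. Shares are bound to each other, so a lower HoxA share and a higher HoxC share are not separate observations, and with 2 libraries against 2 the smallest two-sided p of an exact permutation test is 0.33. In the AMPK-/- libraries of the TET2 table, HoxA made up 23.4% to 34.5%. The highest value, in the first library of TET2-WT clone 2, was above the WT values of 32.8% and 33.2%, and the next highest was 29.7%.

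The comparison of AMPK-KO with WT cells asked which HOX genes differ when AMPK is missing. At d0 only *Hoxb4* passed the test, and it was lower in AMPK-KO cells. At d8 *Hoxb4* and *Hoxa13* passed, both lower in AMPK-KO cells. Several other HoxB members and *Hoxa5* had higher values in AMPK-KO cells, and *Hoxa11* had lower ones, without passing the adjusted threshold. Counts were tested gene by gene with edgeR's quasi-likelihood test over the whole table, with 4 group means and without a block for the replicate number. A gene was called at a Benjamini-Hochberg adjusted p under 0.05 over all 14329 genes tested, of which 25 were HOX genes. At d0, 1 of 25 HOX genes was called beside 3.52% of all genes tested (2.83% lower and 0.698% higher), and at d8 2 of 25 beside 5.35% (3.98% lower and 1.36% higher), so the number of calls among HOX genes was near the background. In bulk RNA, fewer cells of a kind and less RNA per cell cannot be told apart. The median log2 fold change of the 25 HOX genes was 0.11 at d0 and 0.11 at d8, beside -0.00102 and 0.04 over all genes tested.

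**Figure D2:**
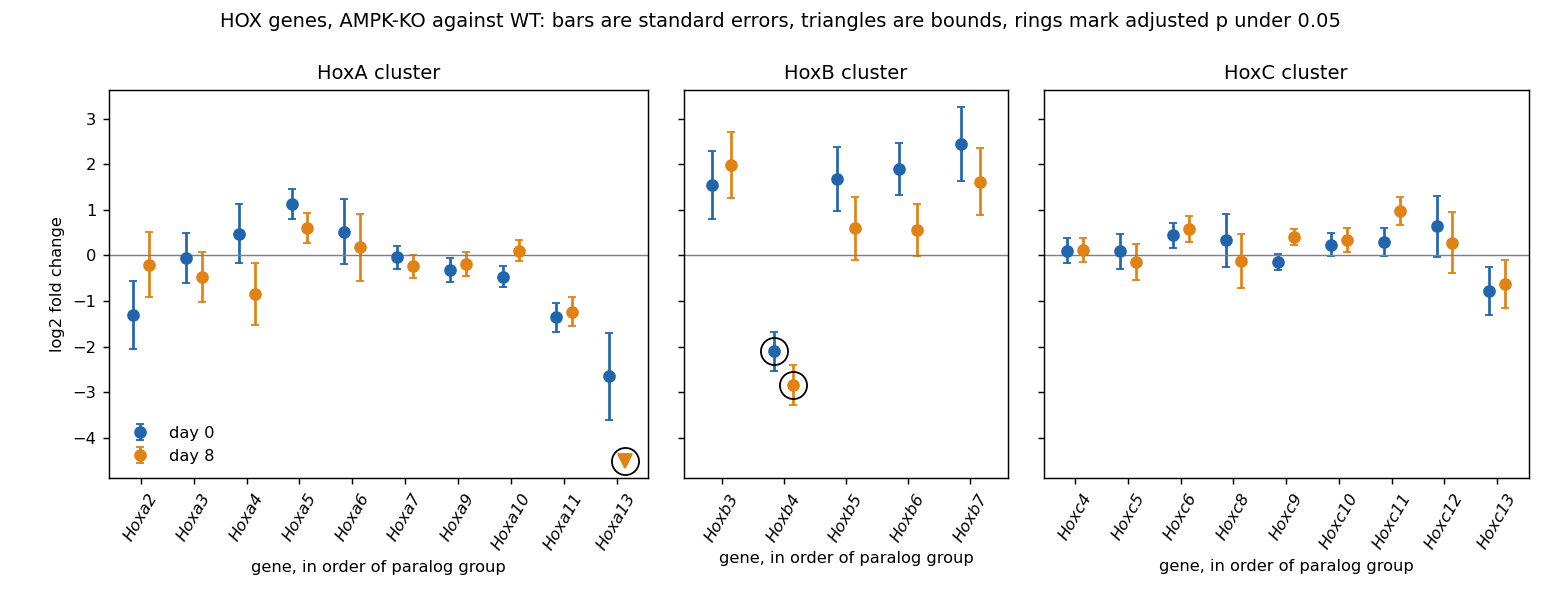
Log2 fold change of AMPK-KO against WT at d0 (blue) and d8 (orange) for HOX genes tested, in order of paralog group within each cluster. Bars are standard errors, rings mark adjusted p under 0.05, and the triangle is the bound for Hoxa13 at d8, where both AMPK-KO libraries were at or under 3 counts. Hoxb4 lies at -2.10 and -2.84 while the other 4 tested HoxB genes lie above 0.

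*Hoxb4* (ENSMUSG00000038692.8) lies on chromosome 11 at chr11:96318267-96321638 of GRCm38, plus strand, between the members *Hoxb5* and *Hoxb3*, and none of its exon length is shared with another annotated gene. It had 45 and 31 counts in the d0 libraries of WT, with 8 and 10 in those of AMPK-KO, or 2.17 and 1.68 CPM against 0.419 and 0.468 CPM. The d8 libraries held 46 and 49 counts in WT libraries, with 8 and 7 in AMPK-KO, or 2.53 and 2.30 CPM against 0.326 and 0.340 CPM. Every WT library was above every AMPK-KO library, and the values within each group lay close together. The log2 fold change was -2.10 ± 0.425 (SE; edgeR adjusted p = 0.0466) at d0 and -2.84 ± 0.435 (edgeR adjusted p = 0.0168) at d8. Both calls rest on few replicates. Leaving out any 1 of the 8 libraries raised the adjusted p at d0 to between 0.0683 and 0.243, and leaving out any 1 of the 4 d8 libraries raised that at d8 to between 0.0658 and 0.109, with the fold change between -2.27 and -1.92 at d0 and between -2.90 and -2.75 at d8. In the AMPK-/- libraries of the TET2 table *Hoxb4* had 2 and 7 counts in TET2-WT clone 1, 6 and 20 in TET2-WT clone 2, 9 and 22 in TET2-S97E clone 1, and 0 and 40 in TET2-S97E clone 2. All 8 were lower, in CPM, than the lowest WT library of the first table, a comparison across tables that were normalized separately and that has no test.

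*Hoxa13* (ENSMUSG00000038203.18) is the last gene of HoxA, at chr6:52257694-52260880 on the minus strand, with no exon length shared. WT libraries gave 17 and 20 counts at d0 where AMPK-KO libraries gave 1 and 5, and 28 and 96 against 2 and 0 at d8. The groups did not overlap at either day, and the WT d8 libraries differed from each other more than those of d0, at 1.54 and 4.50 CPM. Its log2 fold change at d0 was -2.65 ± 0.952 (edgeR adjusted p = 0.176). The AMPK-KO mean behind that value was 0.143 ± 0.128 CPM (SD), near the floor of 3 counts, so its size is uncertain. At d8 the AMPK-KO value of *Hoxa13* was at least 22.6-fold lower, against the floor of 3 counts per library (edgeR adjusted p = 0.0288). Without the second WT d8 library that bound was 11.5-fold, and without the first 33.6-fold. Leaving out 1 of the d8 libraries raised that adjusted p to between 0.0713 and 0.157, and a fit of the d8 libraries alone gave 0.055. The genes between *Hoxa13* and *Hoxa9* in the cluster are *Hoxa11* and *Hoxa10*, described next.

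*Hoxa11* (ENSMUSG00000038210.10, chr6:52242106-52245810, minus strand) had 632 and 299 counts in the d0 libraries of WT, with 162 and 208 in those of AMPK-KO, and 362 and 413 against 221 and 159 at d8. All WT libraries were above all AMPK-KO libraries, with the first WT d0 library far above the second. The log2 fold change was -1.36 ± 0.316 (edgeR adjusted p = 0.0685) at d0 and -1.23 ± 0.315 (edgeR adjusted p = 0.0745) at d8, outside the threshold. DESeq2's Wald test called it at both days, with adjusted p of 0.00357 and 0.00856. *Hoxa11os*, the antisense transcript whose exons cover part of *Hoxa11*, had 342 and 265 counts in the d0 libraries of WT, with 70 and 102 in those of AMPK-KO, a log2 fold change of -1.87 ± 0.304 (edgeR adjusted p = 0.0237). At d8 it had 137 and 246 against 126 and 115 counts, a log2 fold change of -0.83 ± 0.297 (edgeR adjusted p = 0.157). Reads from the gene and its antisense partner cannot be told apart unless the counting used strand, so the values of this pair are uncertain. *Hoxa10* had 921 and 550 counts in the d0 libraries of WT, with 481 and 615 in those of AMPK-KO, and 696 and 1026 against 1134 and 966 at d8, without a call at either day.

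The 250 bases before the start of these 3 genes are shown because they are the promoters of the HOX genes described above, which had lower values without AMPK, with that of *Hoxd13*, a digit gene that had at most 3 counts in any library, for comparison. CG dinucleotides, the sites of DNA methylation that TET proteins oxidize, are in capitals. The sequences are from RefSeq on GRCm38.p6 and are written 5′ to 3′ on the strand of the gene.
Hoxb4, chr11:96318017-96318266, plus strand: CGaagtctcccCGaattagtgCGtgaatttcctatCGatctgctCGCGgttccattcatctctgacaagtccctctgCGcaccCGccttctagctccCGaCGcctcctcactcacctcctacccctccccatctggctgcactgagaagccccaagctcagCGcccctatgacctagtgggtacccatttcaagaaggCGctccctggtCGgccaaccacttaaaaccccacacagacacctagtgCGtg
Hoxa13, chr6:52260881-52261130, minus strand: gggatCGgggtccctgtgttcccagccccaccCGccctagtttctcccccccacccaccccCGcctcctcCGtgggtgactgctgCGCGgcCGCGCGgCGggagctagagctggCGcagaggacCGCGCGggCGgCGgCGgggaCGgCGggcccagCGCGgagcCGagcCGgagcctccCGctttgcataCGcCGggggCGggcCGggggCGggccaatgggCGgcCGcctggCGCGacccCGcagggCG
Hoxa11, chr6:52245811-52246060, minus strand: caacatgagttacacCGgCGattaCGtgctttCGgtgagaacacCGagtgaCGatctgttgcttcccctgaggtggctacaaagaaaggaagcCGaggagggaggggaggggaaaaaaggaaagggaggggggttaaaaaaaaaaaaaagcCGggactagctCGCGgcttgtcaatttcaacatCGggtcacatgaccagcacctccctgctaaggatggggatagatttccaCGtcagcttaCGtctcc
Hoxd13, chr2:74667975-74668224, plus strand: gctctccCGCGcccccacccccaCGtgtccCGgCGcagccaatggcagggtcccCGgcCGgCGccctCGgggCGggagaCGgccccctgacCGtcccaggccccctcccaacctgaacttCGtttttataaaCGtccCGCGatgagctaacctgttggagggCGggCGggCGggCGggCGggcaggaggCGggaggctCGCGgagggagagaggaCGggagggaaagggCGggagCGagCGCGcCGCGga

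The windows held 14 CG in *Hoxb4*, 35 in *Hoxa13*, 13 in *Hoxa11* and 31 in *Hoxd13*. Windows with fewer CG made up 97% of the 32851 mouse promoters of the same length for *Hoxa13*, 94.8% for *Hoxd13*, 70.6% for *Hoxb4* and 68.5% for *Hoxa11*. CG-rich windows were found both in a gene with transcripts in WT cells and in a gene near 0. The RefSeq table matched 22 of the 39 HOX genes, with 24 promoters, whose median was 12.5 CG against 6.0 over all promoters. The letters AGGTCA, a site that retinoic acid receptors can bind, occurred on either strand in 25.0% of the HOX windows and 14.0% of all windows. TTTATG, a CDX-type motif, occurred in 20.8% and 10.8%, TGATNNAT, the PBX and HOX type of composite motif, in 16.7% and 7.68%, and the E-box CANNTG in 70.8% and 66.2%. Of the 24 windows 10 were from HoxA, 3 from HoxB, 1 from HoxC and 10 from HoxD, and AGGTCA was found in 0, 1, 1 and 4 of them, so 4 of the 6 HOX windows with these letters were from HoxD, the cluster near 0. These are matches of letters and say nothing of binding. DNA methylation was not analysed here.

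The other HoxB genes tested had higher values in AMPK-KO cells at d0, opposite in direction to *Hoxb4*, and none of them passed the adjusted threshold. *Hoxb6* had 20 and 14 counts in the d0 libraries of WT, with 67 and 63 in those of AMPK-KO, a log2 fold change of 1.89 ± 0.566 (edgeR adjusted p = 0.124), and 24 and 10 against 39 and 21 counts at d8, where the groups overlapped in CPM. *Hoxb7* had 1 and 4 counts in the d0 libraries of WT, with 9 and 21 in those of AMPK-KO, a log2 fold change of 2.44 ± 0.804 (edgeR adjusted p = 0.149), and 6 and 4 against 19 and 17 at d8. The *Hoxb7* groups did not overlap at either day. *Hoxb5* had 11 and 2 counts in the d0 libraries of WT, with 23 and 19 in those of AMPK-KO, and 10 and 10 against 21 and 14 at d8, and *Hoxb3* had 3 and 4 against 7 and 15 at d0, and 6 and 2 against 21 and 17 at d8. Neither gene's groups overlapped in CPM, and the log2 fold changes were 1.67 ± 0.704 and 0.59 ± 0.680 for *Hoxb5* and 1.55 ± 0.751 and 1.99 ± 0.721 for *Hoxb3*. Single libraries moved these values, with log2 fold changes of 0.97 to 3.19 for *Hoxb5* at d0 and 1.35 to 3.10 for *Hoxb3* at d8 when 1 WT library of that day was left out, and 1.72 to 3.77 for *Hoxb7* at d0. The counts of these genes were low, and a difference of moderate size could not be detected with such counts and 2 libraries per group.

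The posterior end of HoxB had WT transcripts only at the limit of detection. These genes were too low for the test and are named after their values were seen. *Hoxb9*, a gene of the thoracic skeleton, had 3 and 4 counts in WT cells at d0 and 5 and 10 at d8, and 0 counts in all 4 AMPK-KO libraries. *Hoxb13*, a tail and prostate gene, had 1 and 8 counts at d0 and 2 and 7 at d8 in WT cells, and again 0 in all 4 AMPK-KO libraries. Against the floor of 3 counts per library, the AMPK-KO value of *Hoxb9* was at least 2.78-fold lower at d8. No bound is given for *Hoxb9* at d0 or for *Hoxb13*, since 1 of the WT libraries was itself at or under the floor. *Hoxb2*, near the anterior end, had 0 and 1 counts in WT cells at d0 and 0 and 0 at d8. AMPK-KO cells had 9 and 7 and then 4 and 6 counts, at least 2.60-fold and at least 1.49-fold higher. With 1 AMPK-KO library left out, the lowest bounds were 2.13-fold and 1.07-fold. Exons of *Hoxb2* shared 27.3% of their length with *Hoxb3os* on the other strand. *Hoxb3os* had 0 counts in WT cells and 4, 3, 6 and 7 in AMPK-KO cells. Whether reads were counted by strand is not given, so the *Hoxb2* values are uncertain. *Hoxb9* and *Hoxb13* had at most 1 count in each AMPK-/- library of the TET2 table.

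**Figure D3:**
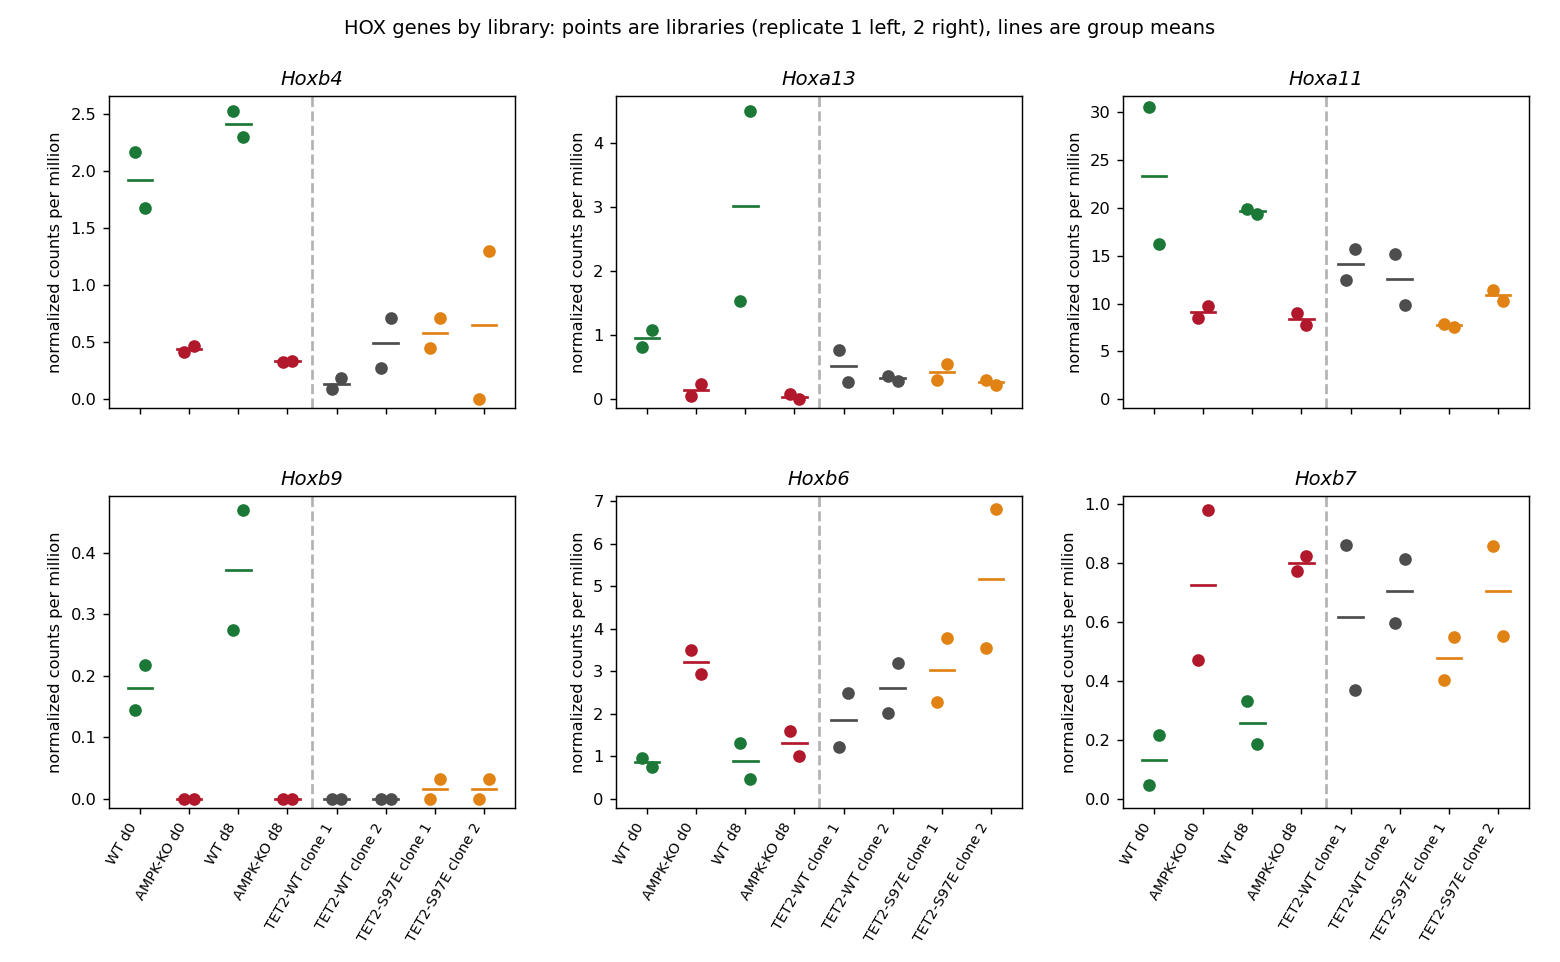
Normalized CPM of 6 HOX genes in each of the 16 libraries. Points are libraries, short lines are group means, the y axes start just under 0 and differ between panels, and the dashed line separates the tables, which were normalized separately. Hoxb4, Hoxa13, Hoxa11 and Hoxb9 are higher in every WT library than in every AMPK-KO library of the same day, and Hoxb6 and Hoxb7 are lower in WT at d0.

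No other member of HoxA or HoxC passed the test, which had no block for the replicate number. *Hoxa5* had 68 and 47 counts in the d0 libraries of WT, with 129 and 128 in those of AMPK-KO, a log2 fold change of 1.12 ± 0.332 (edgeR adjusted p = 0.122), and 41 and 57 against 107 and 65 at d8, with no overlap in CPM at either day. *Hoxc11* had 734 and 418 counts in the d0 libraries of WT, with 753 and 683 in those of AMPK-KO, and 407 and 420 against 1242 and 650 at d8. The d8 groups of *Hoxc11* did not overlap, and its log2 fold change there was 0.97 ± 0.305 (edgeR adjusted p = 0.12). With the replicate number as a block, edgeR's adjusted p for *Hoxc11* at d8 was 0.037, which is the only HOX call that the block changed. At d0 the log2 fold changes of the 9 HoxC genes had a median of 0.24 with 7 above 0, and those of the 11 HoxA genes a median of -0.20 with 8 below 0. The groups did not overlap in 7 HOX genes lower and 7 higher without AMPK at d0, beside 25.7% and 23.7% of all genes, and in 4 lower and 7 higher at d8, beside 27.9% and 30.0%. An unadjusted p under 0.05 was reached by 7 of 25 HOX genes at d0 and 5 of 25 at d8, beside 20.9% and 22.8% of all genes. These counts among HOX genes were near the background of the table.

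Markers of muscle state and of other cell types differed between the same libraries. *Myod1*, the myoblast determination factor, had 1606 and 2450 counts in the d0 libraries of WT, with 151 and 291 in those of AMPK-KO, and *Myog*, which starts fusion, had 612 and 361 against 12 and 12. Both were called lower at d0 (edgeR adjusted p = 0.0147 and 0.0116), and neither at d8. Summed over the 7 muscle markers, of which *Des* was the most abundant throughout, the level was 1720 and 2530 CPM in the WT libraries of d0 with 1260 and 1500 CPM in those of AMPK-KO, and 4490 and 5510 CPM against 1820 and 4960 CPM at d8. Of the 19 markers of other cell types, 10 were tested. *Tubb3*, a neuronal tubulin, was the 1 called at either day, beside 3.52% and 5.35% of all genes. Its log2 fold changes were -4.15 and -5.99. Summed over the 19 markers, the level was 205 and 269 CPM in WT and 61.1 and 78.1 CPM in AMPK-KO cells at d0, with *Tubb3* the most abundant in WT and *Twist2* and *Pdgfra* in AMPK-KO cells. At d8 it was 1010 and 1470 CPM against 297 and 453 CPM, with *Dcn*, a fibroblast and muscle matrix gene, the most abundant in all 4. Without the most abundant marker of each library the sums were 76.1 and 38.7 CPM in WT and 44.3 and 52.7 CPM in AMPK-KO cells at d0, which overlapped, and 133 and 101 CPM against 57.0 and 53.4 CPM at d8. Of the 10 tested, 6 had log2 fold changes above 0 at each day, with medians of 0.18 and 0.47 over the 10. The 6 were *Cd68*, *Lyz2*, *Csf1r*, *Krt8*, *Pdgfra* and *Twist2*, and the 4 below 0 at each day were *Tubb3*, *Dcn*, *Kdr* and *Cdh1*. The epithelial genes went both ways without overlap and without a call, with log2 fold changes of 4.31 and 4.01 for *Krt8* and -1.90 and -2.24 for *Cdh1*. The endothelial receptor gene *Kdr* was at least 3.83-fold lower at d0 and at least 13.8-fold lower at d8 against the floor, or 1.82-fold and 2.05-fold without the higher WT library, and was not called. The neural marker *Rbfox3* and the fibroblast marker *Thy1* were at 0 in all 8 libraries, and the leukocyte gene *Ptprc* in 7 of them. The part of these markers in the HOX differences was not tested.

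The comparison of d8 with d0 asked how HOX genes differ after the days in differentiation medium, within each genotype. None of the 25 HOX genes passed the test in WT or in AMPK-KO cells, while 12.4% of all genes were called in WT cells (5.78% higher and 6.58% lower) and 9.76% in AMPK-KO cells (4.81% higher and 4.95% lower). In the same comparison *Myh3*, embryonic myosin, had 248 and 243 counts at d0 and 13548 and 23516 at d8 in WT cells, with an edgeR adjusted p of 0.0179. In AMPK-KO cells *Myh3* had 4 and 3 counts at d0 and 2051 and 19614 at d8. The AMPK-KO d8 libraries thus differed widely, at 83.7 and 953 CPM. *Myog* and *Ckm* also rose in both genotypes, and *Myod1* rose in AMPK-KO cells. Among markers of other cell types *Dcn* rose in both genotypes and *Tubb3* fell in AMPK-KO cells. With 2 libraries per group, a HOX gene that misses the threshold is not shown to be unchanged. An unadjusted p under 0.05 was reached by 2 of 25 HOX genes in WT and 5 of 25 in AMPK-KO cells, beside 31.1% and 28.4% of all genes. DESeq2's Wald test called 0 HOX genes in WT and 1, *Hoxa10*, in AMPK-KO cells. These comparisons share libraries with those of the genotypes and are not independent of them.

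**Figure D4:**
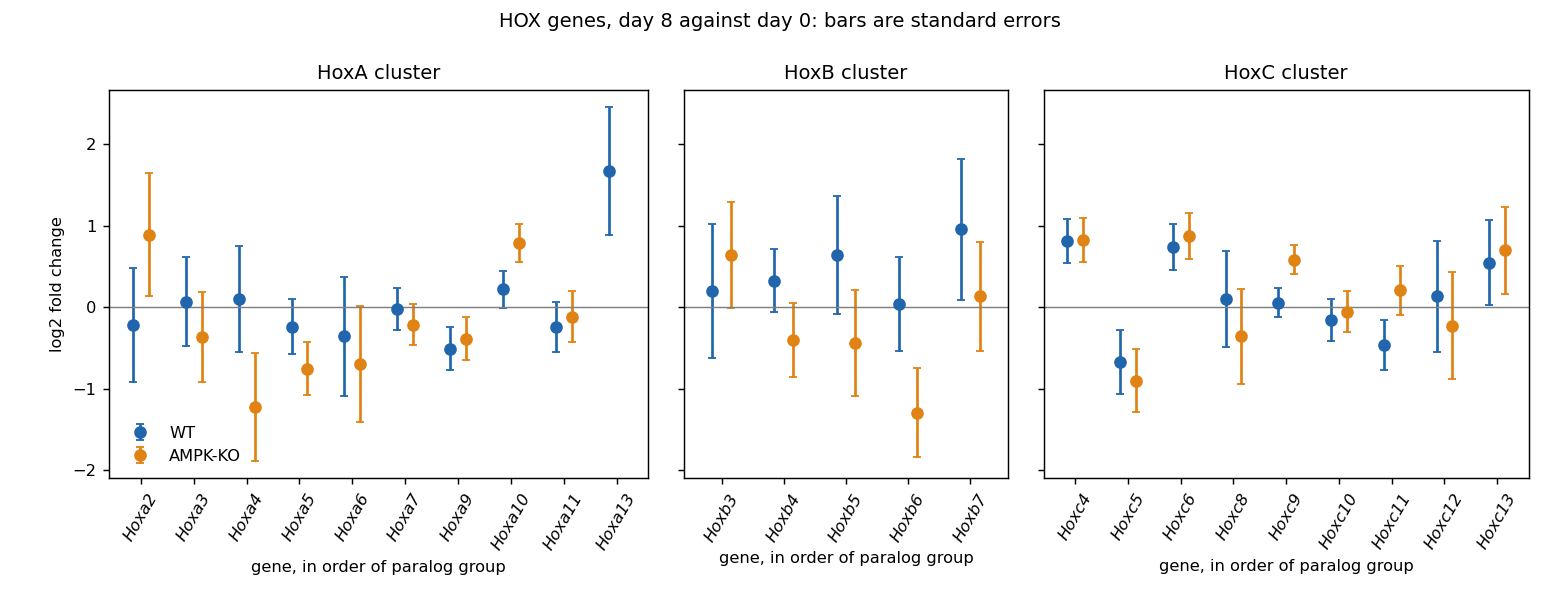
Log2 fold change of d8 against d0 in WT (blue) and AMPK-KO (orange) cells for HOX genes tested, in order of paralog group within each cluster. Bars are standard errors, and Hoxa13 is not drawn for AMPK-KO cells, which had 1 and 5 counts at d0 and 2 and 0 at d8. Hoxc4 and Hoxc6 lie above 0 in both genotypes, between 0.74 and 0.87, and no gene passed the adjusted threshold.

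The HOX genes with the lowest adjusted p in this comparison were HoxC and HoxA members. *Hoxc4* had 178 and 115 counts at d0 and 220 and 298 at d8 in WT cells, and 157 and 166 against 297 and 334 in AMPK-KO cells, with log2 fold changes of 0.82 ± 0.269 (edgeR adjusted p = 0.0903) and 0.83 ± 0.269 (edgeR adjusted p = 0.0983). *Hoxc6* had 201 and 147 counts at d0 and 255 and 328 at d8 in WT cells, and 212 and 275 against 411 and 559 in AMPK-KO cells, with log2 fold changes of 0.74 ± 0.281 and 0.87 ± 0.279 (edgeR adjusted p = 0.128 and 0.0943). For both genes every d8 library was above every d0 library of the same genotype. *Hoxa10* had a log2 fold change of 0.79 ± 0.230 in AMPK-KO cells (edgeR adjusted p = 0.0758) and 0.22 ± 0.229 in WT cells (edgeR adjusted p = 0.558), and *Hoxc9* 0.58 ± 0.178 in AMPK-KO cells (edgeR adjusted p = 0.0844). *Hoxb6* had 67 and 63 counts at d0 and 39 and 21 at d8 in AMPK-KO cells, and its log2 fold change was -1.30 ± 0.547 (edgeR adjusted p = 0.173). Without overlap were 4 higher and 2 lower HOX genes in WT cells, beside 31.3% and 30.2% of all genes, and 6 higher and 10 lower in AMPK-KO cells, beside 30.2% and 28.9%.

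Whether the genotype difference changed between the days was tested with the interaction term of the same model. No HOX gene and 0 of 14329 genes were called by edgeR, with an unadjusted p under 0.05 in 0 of 25 HOX genes and 729 genes (5.09%), while DESeq2's Wald test called 54 genes (0.375%) and no HOX gene. *Hoxa13* had the lowest unadjusted value among the HOX genes, and its fitted interaction is not given as a fold because the AMPK-KO d8 libraries were at the floor. For *Hoxb4* the difference between the days was -0.73 ± 0.597 on the log2 scale (edgeR adjusted p = 1.0).

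The TET2 table asked whether the phospho-mimicking S97E form of TET2 changes expression on the AMPK-/- background. No HOX gene passed the test between TET2-S97E and TET2-WT. Libraries of a clone share the clone, so counts were summed per clone and 2 clones were compared with 2. Of 15126 genes tested 26 were HOX genes, and edgeR called 0 of them and 0 genes in all, with an unadjusted p under 0.05 in 0 HOX genes and 1575 genes (10.4%). DESeq2's Wald test on the same sums called 586 genes (3.74%) and no HOX gene, and a genotype model over the 8 libraries called 938 genes (6.98%) and no HOX gene. All 26 HOX genes had overlapping values, while 7.05% of all genes were higher and 7.77% lower in TET2-S97E without overlap. The median log2 fold change of the HOX genes was 0.04, beside -0.01 over all genes.

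The HOX genes with the lowest p in that comparison were *Hoxb6* and *Hoxa11*. *Hoxb6* had 27 and 94 counts in TET2-WT clone 1, 44 and 90 in clone 2, 45 and 117 in TET2-S97E clone 1, and 70 and 209 in clone 2. Its log2 fold change was 0.87 ± 0.440 (edgeR adjusted p = 0.588), and the range over clones and libraries overlapped. *Hoxa11* had 275 and 591 counts in TET2-WT clone 1, 332 and 279 in clone 2, 157 and 232 in TET2-S97E clone 1, and 226 and 316 in clone 2, with a log2 fold change of -0.56 ± 0.291 (edgeR adjusted p = 0.6). *Hoxa13*, with 17 and 10, 8 and 8, 6 and 17, and 6 and 7 counts in the same order, also overlapped between the genotypes. *Tet2* itself had 758 and 854, then 1275 and 1584 counts in the TET2-WT clones and 256 and 675, then 156 and 677 in the TET2-S97E clones, a log2 fold change of -1.29 ± 0.381 (edgeR adjusted p = 0.366).

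The clones of each TET2 genotype were also compared with each other, over the spread between libraries of a clone and without a replicate block. Between the TET2-WT clones 0 of 26 HOX genes were called, beside 0.858% of 14459 genes, and between the TET2-S97E clones also 0, beside 6.17%. Replicate differences of the 2 TET2-S97E clones correlated at 0.551, and without a block a shared shift of this kind stays in the spread. The 0 calls therefore do not show that HOX genes were alike between the clones. An unadjusted p under 0.05 was reached by 2 of 26 in each, beside 20.5% and 19.5% of all genes, and DESeq2's Wald test called no HOX gene in either. *Hoxb5* was the nearest to a call between the TET2-WT clones, with 6 and 19 counts in clone 1 and 22 and 49 in clone 2, a log2 fold change of 1.78 ± 0.728 (edgeR adjusted p = 0.218). Between the TET2-S97E clones it was *Hoxa10*, with 879 and 1321 counts in clone 1 and 1124 and 1997 in clone 2, a log2 fold change of 0.49 ± 0.148 (edgeR adjusted p = 0.0935). Without overlap, 10 HOX genes were higher and 1 lower in clone 2 of TET2-WT, beside 26.0% and 27.8% of all genes, and 3 were higher and 3 lower in clone 2 of TET2-S97E, beside 26.3% and 21.3%. *Myod1* was called between the same clones, with 2923 and 4442 counts in TET2-S97E clone 1 and 545 and 892 in clone 2, a log2 fold change of -2.36 ± 0.230 (edgeR adjusted p = 0.00117).

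Several HOX genes were higher in the second library of each TET2 clone than in the first. In CPM, 14 of 26 HOX genes (53.8%) were higher in replicate 2 than in replicate 1 of all 4 clones, beside 15.5% of all 14459 genes, and 0 were lower in all 4, beside 13.3%. The median difference of log2(CPM + 1), replicate 2 minus replicate 1, was 0.35 for the HOX genes and 0.01 for all genes. The 14 were 8 of 13 central, 5 of 9 posterior and 1 of 4 anterior members tested. *Hoxc8* had 19 and 39 counts in TET2-WT clone 1, 28 and 124 in TET2-WT clone 2, 16 and 89 in TET2-S97E clone 1, and 21 and 128 in TET2-S97E clone 2. *Hoxc5*, with 33 and 68, 29 and 135, 45 and 150, and 49 and 204 counts in the same order, went the same way. The second library was also the deeper one in all 4 clones, with 27394406 to 37790358 total counts against 19801909 to 21456971, and the part of depth in this difference was not tested. Among the WT and AMPK-KO libraries 0 of 25 HOX genes were higher and 4 lower in replicate 2 of all 4 groups, beside 13.4% and 12.7%.

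**Figure D5:**
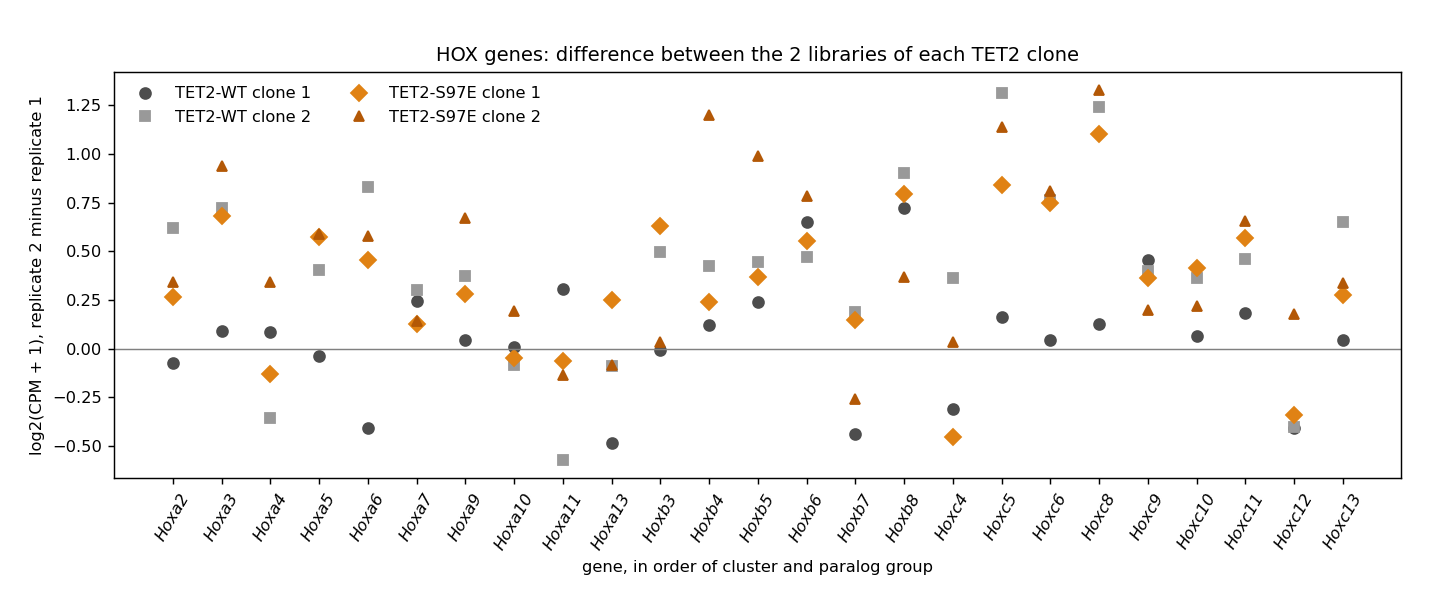
Difference between the 2 libraries of each TET2 clone, as log2(CPM + 1) of replicate 2 minus replicate 1, for HOX genes tested, in order of cluster and paralog group. Symbols are the 4 clones. For 14 genes, among them Hoxa3, Hoxb6, Hoxc5 and Hoxc8, all 4 symbols lie above 0, and for no gene do all 4 lie below 0.

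Noncoding genes inside the clusters were mostly near the floor. Of 43 such genes 15 reached 10 counts in a library, and the other 28 did not. *Hotair*, a long noncoding RNA of HoxC, had 58 and 37 counts in the d0 libraries of WT, with 78 and 46 in those of AMPK-KO, and 57 and 55 against 94 and 100 at d8, and was not called. *Hotairm1*, a noncoding gene of HoxA, had between 9 and 67 counts over the 16 libraries, and was not called either. *Hoxa11os*, called at d0 where 3.52% of all genes were, was the single noncoding cluster gene called in any comparison, among 6 tested in the first table, 13 in the genotype comparison of the TET2 table and 10 between its clones. *Hoxaas3* had 15 and 6 counts in WT cells at d0 and 1 and 1 at d8, against 12 and 12 and then 16 and 6 in AMPK-KO cells. *Hoxaas2* had 11 and 4 counts in WT cells at d0 and 33 and 36 at d8, against 5 and 2 and then 9 and 12 in AMPK-KO cells. In WT cells the d8 values of *Hoxaas3* lay below and those of *Hoxaas2* above the d0 values, without a call (edgeR adjusted p = 0.0548 and 0.0691). With the replicate number as a block, edgeR's adjusted p for *Hoxaas3* was 0.0447. *Hoxa11os* had 70 to 496 counts over the 16 libraries and *Gm15050*, antisense in HoxA, 5 to 48. *Gm27535* and *Gm28011*, next to *Hotair*, reached 36 and 30 counts, and *Hoxd3os1* and *Hoxb5os* 22 and 20. *Gm27817*, *9530018H14Rik*, *Hoxb3os*, *Gm27861* and *Gm27454* reached between 10 and 16 counts.

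Partners and regulators of HOX genes were examined as lists. None of the 9 TALE cofactors was called between AMPK-KO and WT cells at d0 or d8 or between TET2 genotypes. *Pknox2*, a TALE partner enriched in muscle and nerve, was called between d8 and d0 in AMPK-KO cells, with 75 and 72 counts at d0 and 666 and 372 at d8 (edgeR adjusted p = 0.0291), and it was higher in clone 2 than in clone 1 of both TET2 genotypes (edgeR adjusted p = 0.036 and 0.0145). These were 1 of 9 in each comparison, beside 9.76%, 0.858% and 6.17% of all genes. Of 30 Polycomb genes 1 was called lower at d0, beside 2.83% of all genes, and 1 higher at d8, beside 1.36%, so these counts were near the background. At d0 it was *Phf19*, an accessory subunit of the complex that methylates lysine 27, with 507 and 331 counts in WT libraries, with 83 and 107 in AMPK-KO (edgeR adjusted p = 0.036). At d8 it was *Cbx6*, with 3119 and 3785 counts in WT libraries, with 8178 and 7467 in AMPK-KO (edgeR adjusted p = 0.0212). The median log2 fold change of the Polycomb genes was -0.0021 at d0 and 0.14 at d8, beside -0.00102 and 0.04 over all genes.

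Between d8 and d0, 5 of 30 Polycomb genes fell in WT cells and 2 in AMPK-KO cells, beside 6.58% and 4.95% of all genes called lower. *Ezh2*, the lysine 27 methyltransferase, had 1468 and 2048 counts at d0 and 431 and 518 at d8 in WT cells, a log2 fold change of -1.92 ± 0.251 (edgeR adjusted p = 0.0143), and 1342 and 1213 against 520 and 358 in AMPK-KO cells, with a log2 fold change of -1.72 ± 0.25 (edgeR adjusted p = 0.0217). *Phf19* fell in both genotypes, and *Suz12*, *Rbbp7* and *Cbx2* were called in WT cells. Of 11 Trithorax genes and lysine 27 demethylases, 3 were called lower in WT cells (*Men1*, *Psip1* and *Dpy30*), beside 6.58% of all genes. In AMPK-KO cells 1 was called higher, beside 4.81% of all genes. It was *Kdm6b*, a demethylase, with 920 and 1223 counts at d0 and 2218 and 2101 at d8 (edgeR adjusted p = 0.0444). Between the same days edgeR called no HOX gene in either genotype, and DESeq2's Wald test called *Hoxa10* in AMPK-KO cells. No Polycomb or Trithorax gene was called between the genotypes or the clones of the TET2 table.

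Among 13 upstream and boundary factors, of which 10 were tested, *Rarb*, a retinoic acid receptor gene that is itself induced by retinoic acid, was the 1 called at both days, beside 3.52% and 5.35% of all genes. It had 140 and 63 counts in the d0 libraries of WT, with 6 and 10 in those of AMPK-KO, and 68 and 159 against 3 and 6 at d8. The groups stood far apart, with log2 fold changes of -3.68 ± 0.633 (edgeR adjusted p = 0.029) and -4.75 ± 0.678 (edgeR adjusted p = 0.014). *Rarb* had 5 to 12 counts in the 8 AMPK-/- libraries of the TET2 table. *Cdx2* and *Cdx4*, which activate central HOX genes in the embryo, had at most 1 count in any library. *Cdx1*, of the same family, was too low for the test in the first table. At d8 its mean was 0.289 CPM in AMPK-KO against 0.106 CPM in WT cells, at least 1.89-fold higher. At d0 its groups overlapped. No factor of this list other than *Rarb* was called in any comparison.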

How the data were processed

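RNA-seq counts of 16 C2C12 libraries were analysed in 2 tables, each normalized on its own. Per the labels and the study's methods, the authors made reads with bcl2fastq 2.17, trimmed them with Trim Galore 0.4.5, aligned them to mm10 with STAR 2.5.3a and counted them per GENCODE gene with featureCounts 1.5.3. The deposited values are raw counts. Here edgeR 4.0.16 in R 4.3.3 (TMM, its default filter on low counts, quasi-likelihood test, Benjamini-Hochberg adjusted p under 0.05) was fitted over all genes, with 4 group means for WT and AMPK-KO cells and for the clones, and on counts summed per clone for the TET2 genotypes. DESeq2 1.42.0 and limma 3.58.1 were used for alternatives. TPM used merged exon lengths of GENCODE M21 (GRCm38), which held 49326 of the 49585 gene IDs. Scripts were tested on simulated data. Replicates differed by more than sampling noise (chi-square per degree of freedom of 29.41 to 107.2).

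Among WT and AMPK-KO libraries, those with the same replicate number deviated together in all pairs of groups (correlations of 0.129 to 0.392). The numbers were therefore taken to pair the libraries in an alternative fit with a replicate block. Values with that block are named as such, and the other tests of these libraries did not use it. Named with values were HOX genes called in a comparison or with a mean of at least 1 TPM in a group, with full statistics for at most 10 per comparison, and the called members of the lists of cofactors, Polycomb, Trithorax, upstream factors, ParaHox, noncoding, flanking and marker genes. The members and lists were chosen with earlier results of these data known. The values of 1 member are not reported here, though counts over all members include it.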

Additional observations from a re-analysis of the deposited data

How the results depend on the processing

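Of the fold changes recomputed under the alternatives, 1 reversed, that of *Hoxa10* between the days in WT cells, which was not called and ran from -0.026 without the second WT d0 library to 0.52 without the first. Of 47 calls of genes in the other lists, which include each such call printed, 5 held under every alternative run, those of *Tubb3* at d8 and of *Myod1*, *Cdh15*, *Dcn* and *Lyz2* between the TET2-S97E clones. The other 42 were lost without at least 1 library and none reversed, with an edgeR adjusted p of up to 0.434, and those of *Cbx2*, *Skap1* and *Skap2* between the days in WT cells were also lost under an alternative that kept every library. Without a filter on low counts, edgeR called 4 HOX genes between AMPK-KO and WT at d0 (*Hoxa11*, *Hoxa13*, *Hoxb4*, *Hoxb6*) in place of 1, 4 at d8 (*Hoxa11*, *Hoxa13*, *Hoxb4*, *Hoxc11*) in place of 2, 1 between d8 and d0 in AMPK-KO cells (*Hoxa10*) and 1 between the TET2-WT clones (*Hoxc8*) in place of 0. DESeq2's Wald test called 2 at d0 (*Hoxa11*, *Hoxb4*), 3 at d8 (*Hoxa11*, *Hoxa13*, *Hoxb4*) and 1 between the days in AMPK-KO cells (*Hoxa10*). A fit of the d0 libraries alone called 0. Leaving out 1 library gave 0 to 1 HOX genes at d0, 0 to 3 at d8 and 0 to 1 between the days in AMPK-KO cells. The 1 at d0 was *Hoxa11* without the second WT d0 library, the d8 count was 0 without any 1 of the d8 libraries, and *Hoxa10* was called without either WT d0 library. A lone library left in a group is assumed to vary like the other groups. The cause of these changes was not tested.

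Over all genes, DESeq2's Wald test called 1325 at d0 and 1569 at d8 where edgeR called 505 and 766, edgeR without the filter 2026 and 2503, and edgeR on the d0 libraries alone 335. Leaving out 1 library gave 17 to 613 genes at d0 and 107 to 902 at d8. Between the days, WT cells had 1771 calls, 3293 without the filter and 0 to 2260 with a library left out, and AMPK-KO cells 1398, 2394 with DESeq2, 3039 without the filter and 0 to 1737. The interaction had 0 calls, 54 with DESeq2, 449 without the filter and 0 to 6 with a library left out. The TET2 genotypes had 0 calls, 586 with DESeq2, 113 without the filter, 938 over 8 libraries, 166 with limma-voom and the clone as a random effect, and 0 to 184 with a clone left out. The TET2-WT clones had 124, 895, 1627 and 0 to 313, and the TET2-S97E clones 892, 1355, 1680 and 472 to 1014, in the order of edgeR, DESeq2, no filter and a library left out.

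In the TET2 table the correlations of the replicate differences were -0.0688 to 0.144 for the clone pairs with TET2-WT clone 1 and 0.409 to 0.551 for the others. Not every pair was over 0.1, so the numbers were not taken to pair the libraries, although those of 3 clones deviated together. With a replicate block 677 genes were called between the TET2-WT clones, 1540 between the TET2-S97E clones and 858 between the genotypes over 8 libraries. The HOX tests of the TET2 table given above did not use this block, and HOX calls with it are not given here. In the WT and AMPK-KO table the replicate block gave 1 HOX gene at d0 and 3 at d8, of 740 and 1144 genes, and changed no HOX call other than *Hoxc11* at d8. Genes with few counts, which include most of HoxB and all of HoxD, could not show a moderate difference at this depth.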

Other observations

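Of 17 genes listed as flanking the HOX clusters 14 were tested in the first table. Between d8 and d0, 4 were called in WT cells and 1 in AMPK-KO cells, beside 12.4% and 9.76% of all genes. The list includes *Haglr*, which lies inside HoxD, is also among the 43 noncoding cluster genes and was not tested. The difference between flanking and HOX genes was not tested. *Calcoco1*, beside HoxC, had 1755 and 1367 counts at d0 and 3681 and 5241 at d8 in WT cells, and 1062 and 1506 against 4331 and 5449 in AMPK-KO cells, with log2 fold changes of 1.5 ± 0.242 and 1.81 ± 0.245 (edgeR adjusted p = 0.0156 and 0.0209). *Skap2*, beside HoxA, had 1156 and 973 counts at d0 and 1400 and 1756 at d8 in WT cells, and *Cbx3* had 2471 and 2901 against 1262 and 1783. *Skap1*, beside HoxB, had 3 and 2 counts at d0 and 14 and 17 at d8 in WT cells, at least 5.10-fold higher. Without a filter on low counts neither *Skap1* nor *Skap2* was called. No flanking gene was called between the genotypes of either table or between clones.

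*Hoxd3os1*, a noncoding gene of the HoxD cluster, had 15 and 22 counts in TET2-WT clone 1, 10 and 19 in TET2-WT clone 2, 2 and 2 in TET2-S97E clone 1, and 1 and 3 in TET2-S97E clone 2. The groups did not overlap, it was at least 4.81-fold lower in TET2-S97E, and it was not called (edgeR adjusted p = 0.305 over clone sums, and 0.0925 to 0.586 over the alternatives that compare clones), while a model that takes the 8 libraries as independent gave an edgeR adjusted p of 0.00832. In the first table it had 0 counts in all 4 WT libraries and 2, 2, 2 and 0 in the AMPK-KO libraries, so the TET2-WT clones held the high values. Of the 8 ParaHox and related homeobox genes, *Gbx1* alone was tested in the first table, with 2 to 23 counts over the 16 libraries and no call. *Gsx1*, *Gsx2*, *Pdx1*, *Evx1*, *Mnx1* and *Gbx2* had 0 counts throughout.

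Between the TET2-S97E clones, markers of muscle and of other cells were called, beside 6.17% of all genes. *Des*, *Cdh15*, *Myh3* and *Myod1* were lower in clone 2, and *Dcn*, *Lyz2* and *Tubb3* were higher. *Cdh5*, an endothelial cadherin gene, had 14 and 43 counts in clone 1 and 0 and 1 in clone 2, at least 8.41-fold lower (edgeR adjusted p = 0.0143). Between the TET2-WT clones *Myod1* was the 1 marker called, with 158 and 393 counts in clone 1 and 394 and 734 in clone 2 (edgeR adjusted p = 0.0388).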
